A study of Mus musculus with 16 samples.

Results

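Mouse genes for calcium pumps were followed across 16 RNA libraries of striatum, the large input nucleus of the basal ganglia. The set was chosen by gene name and held 7 of the 20730 genes of the deposited tables. It comprised 4 plasma membrane pumps (Atp2b1, Atp2b2, Atp2b3 and Atp2b4, encoding PMCA proteins), 2 pumps of the endoplasmic reticulum (Atp2a2 and Atp2a3, encoding SERCA proteins) and 1 pump of the secretory pathway (Atp2c1). The libraries came from 8 adult C57BL/6N mice. In 4 mice, called PMCA mice, striatal astrocytes were made to express hPMCA2w/b, a human plasma membrane pump that lowers calcium signals. In 4 control mice they expressed a control protein that the labels do not name. All 8 mice also carried the RiboTag virus, which adds hemagglutinin-tagged Rpl22, a ribosomal protein, to astrocytes. The labels do not name the promoters of the adeno-associated viruses. Each mouse gave RNA bound to the tagged ribosomes (immunoprecipitate, IP) and RNA of the cleared lysate (input), so there were 4 PMCA IP, 4 control IP, 4 PMCA input and 4 control input libraries.

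Whole striata were used. Recovered read totals were 48.1 to 55.1 M in PMCA IP, 46.8 to 58.5 M in control IP, 32.3 to 40.9 M in PMCA input and 33.1 to 40.2 M in control input (M, megareads). All 10 astrocyte markers examined rose in IP over input in both treatments (median log2 fold 3.23 in PMCA mice and 3.20 in control mice), and all 8 microglial and all 8 endothelial markers fell. IP also held RNA of other cells: all 9 projection neuron markers measured fell, but of 9 interneuron markers 6 rose in PMCA mice (median 1.79) and 8 rose in control mice (median 2.03). Of 10 general neuronal markers 1 rose and 8 fell in PMCA mice, and 2 rose and 7 fell in control mice. Of 8 oligodendrocyte markers 5 rose and 0 fell in PMCA mice, and 3 rose and 1 fell in control mice. Of all genes tested, 37.4% rose and 39.3% fell in PMCA mice, and 39.1% rose and 38.4% fell in control mice. The count of oligodendrocyte markers that rose in control mice was near that share. Rpl22, the virus-borne gene, was lower in PMCA mice, at 8.11 ± 0.11 log2 CPM (log2 of read counts scaled to library size by the authors) in PMCA IP and 9.80 ± 0.15 in control IP (SD, n = 4; log2 fold -1.69, limma adjusted p = 1.92e-05). Rpl22 was also lower in PMCA input than in control input (log2 fold -0.88, limma adjusted p = 0.000489). The effect in IP minus that in input was -0.81 (adjusted p = 0.00384). An effect of the human pump and an effect of this lower Rpl22 level cannot be told apart in any comparison of the treatments.

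Plasma membrane pumps push calcium out of the cell at the cost of ATP and are switched on by calmodulin. SERCA pumps refill the endoplasmic reticulum, the store from which astrocyte calcium signals are released, and the secretory pathway pump loads calcium and manganese into the Golgi apparatus. PMCA2 and PMCA3 are known as fast forms of excitable cells, while PMCA1, PMCA4 and SERCA2 are found in many tissues.

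All 7 symbols were found in the RefSeq gene table of GRCm38.p6, whose coordinates are those of mm10. Atp2b1 lies on chromosome 10 (98914630 to 99026143), Atp2b2 on chromosome 6 (113743831 to 114042613), Atp2b3 on the X chromosome (73502749 to 73573275) and Atp2b4 on chromosome 1 (133702674 to 133801059). Atp2a2 lies on chromosome 5 (122453513 to 122502225), Atp2a3 on chromosome 11 (72961169 to 72993043) and Atp2c1 on chromosome 9 (105411362 to 105521257). RefSeq lists 20 transcripts for Atp2b2, 13 for Atp2b4, 12 for Atp2b3, 8 for Atp2b1, 8 for Atp2c1, 3 for Atp2a2 and 3 for Atp2a3. The values are sums over whatever transcripts were counted, so splice forms such as w/b are not resolved. Atp2b2 overlaps Gm15083, Atp2b4 overlaps Mir6903 and Atp2c1 overlaps Gm40564, and none of these 3 genes has a row under that symbol.

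The RefSeq table of promoter windows (GRCm38.p6, 300 bases around a transcript start) held 9 windows for 5 of the 7 genes, namely Atp2b1, Atp2b2, Atp2b4, Atp2a3 and Atp2c1. The first listed window is shown for the plasma membrane pump gene that was higher in IP (Atp2b4), the one that fell most in IP (Atp2b1) and the mouse counterpart of the human pump (Atp2b2). The Atp2b4 window lies at chr1:133753698-133753997, the Atp2b1 window at chr10:98914392-98914691 and the Atp2b2 window at chr6:114042031-114042330. Atp2b1 is on the plus strand and the other 2 genes are on the minus strand. The Atp2b4 and Atp2b2 windows lie inside the annotated gene spans, which begin further upstream. The upstream end of the Atp2b2 window, 114042330, is near that of the gene, 114042613. The upstream end of the Atp2b4 window, 133753997, lies far inside the gene, whose upstream end is 133801059. The Atp2b4 window is thus an internal start and does not describe the upstream end of that gene. Capitals mark the CG dinucleotides, the sites that DNA methylation can modify.
Atp2b4: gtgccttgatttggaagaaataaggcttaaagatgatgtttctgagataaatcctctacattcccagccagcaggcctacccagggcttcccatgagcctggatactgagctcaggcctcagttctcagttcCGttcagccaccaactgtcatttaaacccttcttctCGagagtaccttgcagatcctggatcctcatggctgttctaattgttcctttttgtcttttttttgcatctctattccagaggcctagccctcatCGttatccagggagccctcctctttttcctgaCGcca
Atp2b1: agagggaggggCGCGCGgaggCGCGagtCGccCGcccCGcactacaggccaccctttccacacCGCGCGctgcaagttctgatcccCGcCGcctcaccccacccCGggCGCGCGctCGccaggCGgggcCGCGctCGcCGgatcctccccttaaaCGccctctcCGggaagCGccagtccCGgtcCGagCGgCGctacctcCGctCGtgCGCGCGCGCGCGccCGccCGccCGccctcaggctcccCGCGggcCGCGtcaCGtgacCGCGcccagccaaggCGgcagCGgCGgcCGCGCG
Atp2b2: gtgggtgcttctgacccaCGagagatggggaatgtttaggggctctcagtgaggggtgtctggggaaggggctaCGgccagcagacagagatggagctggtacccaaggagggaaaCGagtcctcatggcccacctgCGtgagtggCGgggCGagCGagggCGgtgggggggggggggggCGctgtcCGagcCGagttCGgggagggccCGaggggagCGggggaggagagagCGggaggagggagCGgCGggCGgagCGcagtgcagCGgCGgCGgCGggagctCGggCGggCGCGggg

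The Atp2b4 window held 4 CG dinucleotides, the Atp2b1 window 54 and the Atp2b2 window 27, beside a median of 7 over 32851 windows of the same length. G and C made up 47.7% of the bases of the Atp2b4 window, 79.3% of the Atp2b1 window and 72.7% of the Atp2b2 window. The GC box GGGCGG, searched on both strands, occurred 0 times in the Atp2b4 window, 4 times in the Atp2b1 window and 3 times in the Atp2b2 window, and 35.7% of all windows held it at least once. The second Atp2b1 window (chr10:98914902-98915201) had 45 CG dinucleotides, the Atp2a3 window 25 and the 2 Atp2c1 windows 8 and 36. The other 2 Atp2b2 windows had 8 and 12. These matches describe the letters of the windows and were not set against any binding or methylation data. For Atp2b4 they describe only the internal start shown.

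The first comparison, IP against input, showed which pump transcripts were enriched on or depleted from the tagged ribosomes. Atp2b4 rose in IP in both treatments, though in control mice its call was lost with total reads or without control 1. Atp2c1 rose in both under the authors' scaling but not under total reads. Atp2b1, Atp2b2, Atp2b3 and Atp2a3 fell in both treatments. In PMCA mice 2 of 7 pump genes were higher and 5 lower in IP. Of all 16345 genes tested there, 76.8% passed an adjusted p under 0.05, 37.4% higher and 39.3% lower. In control mice 2 of 7 were higher, 4 lower and 1 did not pass, against 77.5% of 16072 genes passing, 39.1% higher and 38.4% lower. The median log2 fold of the 7 genes was -0.55 in PMCA mice and -0.39 in control mice, beside -0.04 and -0.003 over all genes tested. The largest rise among the pump genes was 0.82, in PMCA mice. In bulk RNA, fewer cells of a type and less RNA per cell cannot be told apart.

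**Figure D1:**
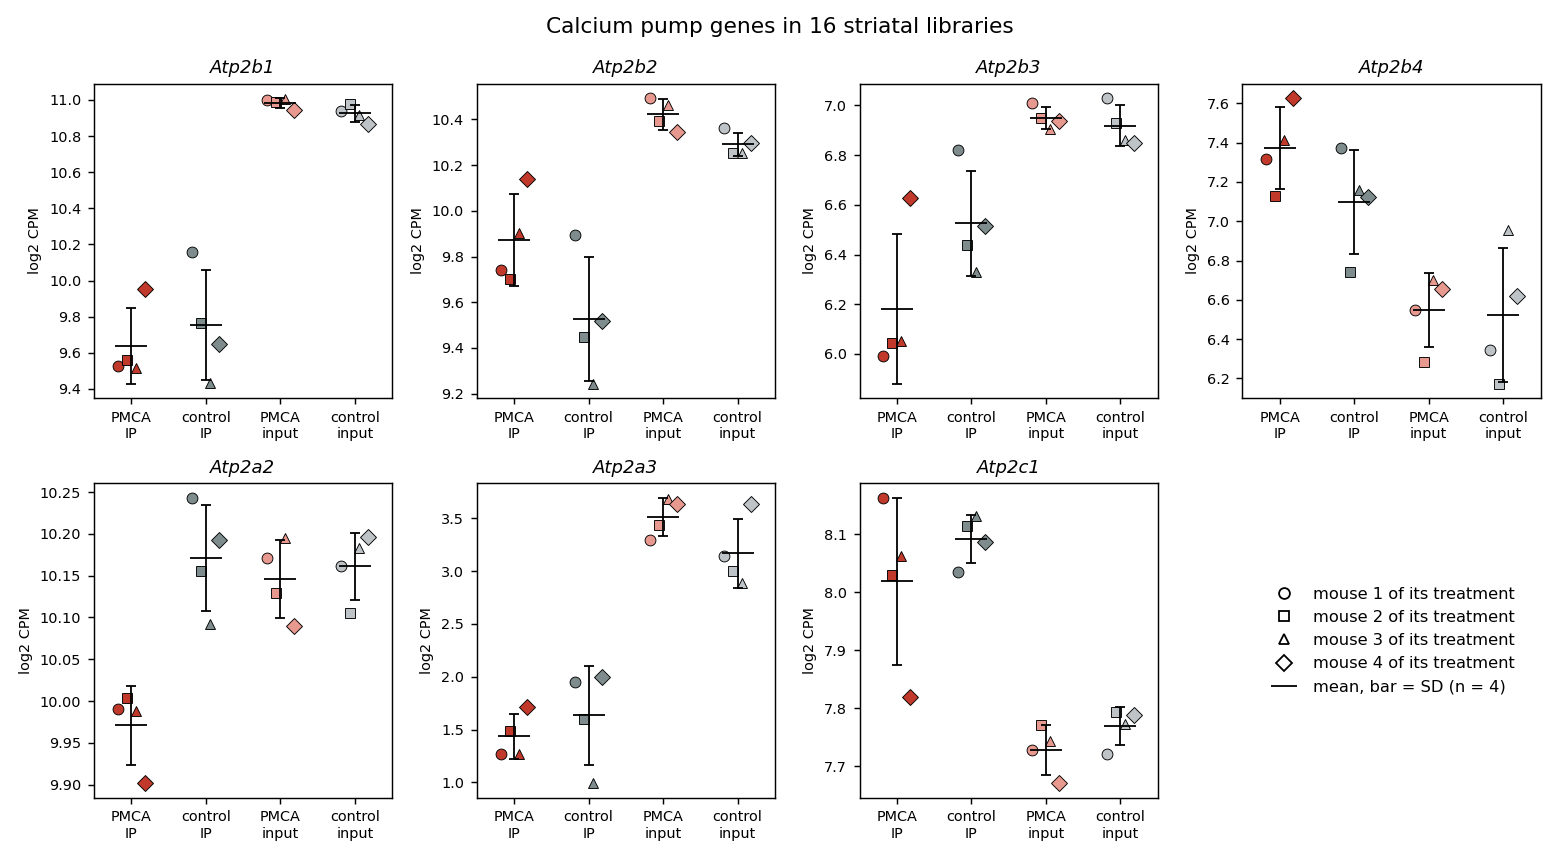
Level of each calcium pump gene (log2 CPM, 1 panel per gene with its own axis) in PMCA IP, control IP, PMCA input and control input. Points are mice, with 1 marker shape per mouse of a treatment, and bars are mean and SD (n = 4). Atp2b1, Atp2b2, Atp2b3 and Atp2a3 sit lower in IP than in input, and Atp2b4 and Atp2c1 average higher under the authors' scaling (Atp2c1 at -0.015 in PMCA mice with total reads).

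Atp2b4 encodes PMCA4, a plasma membrane pump found in many tissues. Its level was 7.32, 7.13, 7.41 and 7.63 log2 CPM in PMCA IP, against 6.55, 6.29, 6.70 and 6.66 in PMCA input (mice 1 to 4). In control mice it was 7.37, 6.74, 7.16 and 7.13 in IP, against 6.34, 6.17, 6.96 and 6.62 in input. All 4 PMCA IP libraries lay above all 4 PMCA inputs, while in control mice the groups overlapped because input 3 exceeded IP 2. The rise was 0.82 on the log2 scale in PMCA mice (1.77-fold, SE 0.11, limma adjusted p = 7.31e-05) and 0.58 in control mice (1.49-fold, SE 0.17, adjusted p = 0.00908). Within a mouse, IP minus input was 0.71 to 0.97 in PMCA mice and 0.20 to 1.03 in control mice, and it was positive in 8 of 8 mice. In control mice the call was lost without control 1 (0.42, adjusted p = 0.067) and with total reads in place of the authors' scaling factors (0.30, adjusted p = 0.128).

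Atp2b1 encodes PMCA1, the most widely found plasma membrane pump. Its level was 9.53, 9.56, 9.51 and 9.95 log2 CPM in PMCA IP, against 10.997, 10.99, 11.01 and 10.95 in PMCA input. In control mice it was 10.16, 9.77, 9.43 and 9.65 in IP, against 10.94, 10.98, 10.92 and 10.87 in input. No IP library reached any input, and the inputs spread far less than the IP libraries. Atp2b1 fell by 1.35 on the log2 scale in PMCA mice (SE 0.097, limma adjusted p = 4.35e-07) and by 1.17 in control mice (SE 0.13, adjusted p = 1.12e-05). Within a mouse, IP minus input ranged over -1.49 to -0.99 in PMCA mice and -1.48 to -0.78 in control mice. IP held 0.393 times the input level in PMCA mice and 0.443 times in control mice.

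Atp2b2 encodes PMCA2, the mouse counterpart of the human pump that the virus carries. Its level was 9.74, 9.70, 9.90 and 10.14 log2 CPM in PMCA IP, against 10.49, 10.39, 10.46 and 10.34 in PMCA input. In control mice it was 9.89, 9.45, 9.24 and 9.52 in IP, against 10.36, 10.25, 10.25 and 10.30 in input. IP lay below input in every mouse, and the groups did not overlap in either treatment. Atp2b2 fell by 0.55 on the log2 scale in PMCA mice (SE 0.096, limma adjusted p = 0.000385) and by 0.77 in control mice (SE 0.12, adjusted p = 0.00014). Whether reads from the human pump were assigned to mouse Atp2b2 is unknown here, and this bears on every Atp2b2 value of PMCA mice.

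Atp2b3 encodes PMCA3, a plasma membrane pump known mainly from neurons. It was 5.99, 6.05, 6.05 and 6.63 log2 CPM in PMCA IP, against 7.01, 6.95, 6.90 and 6.94 in PMCA input. Control mice had 6.82, 6.44, 6.33 and 6.51 in IP, against 7.03, 6.93, 6.86 and 6.85 in input. The inputs of both treatments lay close together, and PMCA 4 and control 1 were the high IP libraries. Its fall was 0.77 on the log2 scale in PMCA mice (log2 fold -0.77, SE 0.12, limma adjusted p = 0.000214) and smaller in control mice (log2 fold -0.39, SE 0.096, adjusted p = 0.00312). Within a mouse, IP minus input was -1.02, -0.90, -0.85 and -0.31 in PMCA mice, against -0.21, -0.49, -0.53 and -0.33 in control mice. The difference between these 2 falls is the interaction given further down.

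Of the reticulum pumps, Atp2a3 encodes SERCA3, a form known from endothelial and blood cells among others. It was scarce, with 111 to 161 reads in PMCA IP and 351 to 583 in PMCA input, and 105 to 196 in control IP and 293 to 553 in control input. Its level was 1.27, 1.49, 1.27 and 1.71 log2 CPM in PMCA IP, against 3.30, 3.44, 3.69 and 3.64 in PMCA input. Control mice had 1.95, 1.60, 0.99 and 1.99 in IP, against 3.14, 3.01, 2.89 and 3.64 in input. All IP libraries lay below all inputs. Means were 1.44 ± 0.21 log2 CPM in PMCA IP and 3.51 ± 0.18 in PMCA input, and 1.63 ± 0.46 in control IP and 3.17 ± 0.33 in control input (SD, n = 4). It had the largest fall of the 7 genes, with a log2 fold of -2.08 in PMCA mice (SE 0.13, limma adjusted p = 1.69e-07) and -1.54 in control mice (SE 0.23, adjusted p = 0.000107). The 8 endothelial markers fell with it, with a median of -3.36 in PMCA mice and -4.20 in control mice, and the part of endothelial RNA in the Atp2a3 fall was not tested.

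Atp2a2 encodes SERCA2, the reticulum pump of most cells. It was 9.99, 10.004, 9.99 and 9.90 log2 CPM in PMCA IP, against 10.17, 10.13, 10.19 and 10.09 in PMCA input. In control mice it was 10.24, 10.16, 10.09 and 10.19 in IP, against 10.16, 10.10, 10.18 and 10.20 in input. PMCA IP was the low group, below all libraries of the other 3 groups. The log2 fold was -0.18 in PMCA mice (0.886-fold, SE 0.056, limma adjusted p = 0.0157), a call that was lost without PMCA 1 (adjusted p = 0.071), PMCA 2 (0.058) or PMCA 3 (0.078). In control mice it was 0.01 (SE 0.068, 95% interval -0.14 to 0.16, adjusted p = 0.902), and with total reads it became -0.27 (adjusted p = 0.00465).

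Atp2c1 encodes SPCA1, the calcium and manganese pump of the Golgi apparatus. It was 8.16, 8.03, 8.06 and 7.82 log2 CPM in PMCA IP, against 7.73, 7.77, 7.74 and 7.67 in PMCA input. Control mice had 8.04, 8.12, 8.13 and 8.09 in IP, against 7.72, 7.79, 7.77 and 7.79 in input. The groups did not overlap, and PMCA 4 lay closest to the inputs. Means were 8.02 ± 0.14 log2 CPM in PMCA IP and 7.73 ± 0.042 in PMCA input, and 8.09 ± 0.042 in control IP and 7.77 ± 0.033 in control input (SD, n = 4). IP lay above input in 8 of 8 mice. The log2 fold was 0.29 in PMCA mice (1.22-fold, SE 0.070, limma adjusted p = 0.00326) and 0.32 in control mice (1.25-fold, SE 0.049, adjusted p = 0.000111). Both rises depend on the scaling. With total reads they were -0.015 (adjusted p = 0.851) and 0.05 (adjusted p = 0.381), where the median of all genes shifted to -0.35 in PMCA mice and -0.28 in control mice.

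**Figure D2:**
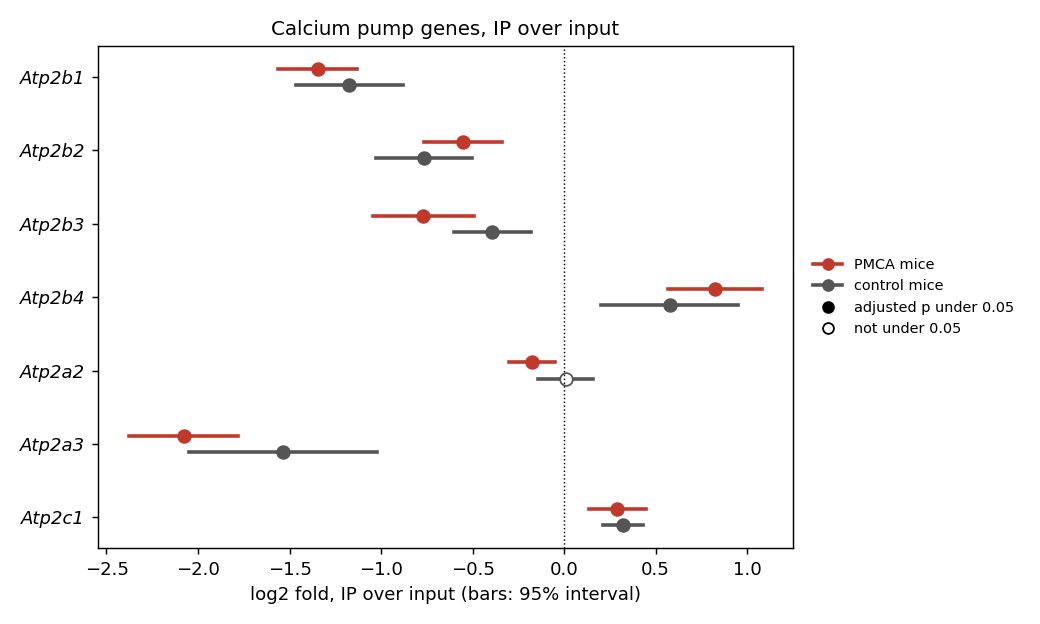
Log2 fold of IP over input for each calcium pump gene (x axis) in PMCA mice (upper bar of each pair) and control mice (lower bar), with 95% intervals from limma (n = 4 IP and 4 input). Filled points have an adjusted p under 0.05. The folds run from -2.08 for Atp2a3 to 0.82 for Atp2b4, both in PMCA mice.

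Over the 16 libraries the pumps that were lower in IP followed each other, with Pearson's r of 0.90 between Atp2b1 and Atp2b2, 0.91 between Atp2b1 and Atp2b3 and 0.96 between Atp2b1 and Atp2a3. Atp2b4 and Atp2b1 had r of -0.77. These values describe libraries that fall into IP and input and that share mice, so they mostly restate the contrast of the fractions. Among 13121 genes with a mean of at least 1 log2 CPM, those most like Atp2b1 were Foxp2, a transcription factor (r = 0.998), Ppp4r4 (0.997) and St8sia3 (0.997). For Atp2b2 they were Plxnd1 (0.978), Fnbp1l (0.975) and Bcr (0.973). For Atp2b3 they were Cntnap2, a neuronal adhesion gene (0.988), Got2 (0.983) and Slc12a5, the neuronal potassium-chloride cotransporter (0.982). Atp2b4 was most like Sema5a (0.947), Scube1 (0.937) and C1ql3 (0.931). Atp2a2 was most like Pja1 (0.941), Got1 (0.934) and Clstn3 (0.934). Atp2a3 was most like Jade3 (0.981), Zfp598 (0.980) and Stat6 (0.977), and Atp2c1 most like Exosc5 (0.975), Paip1 (0.974) and Aamdc (0.971).

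Between treatments, the IP libraries addressed whether the mouse pump transcripts on tagged ribosomes differed once astrocytes carried the human pump. No pump gene passed the test: 0 of 7 had a limma adjusted p under 0.05, against 19.6% of 15748 genes, and 3 of 7 (Atp2a2, Atp2b2 and Atp2b3) had an unadjusted p under 0.05. At least 19.6% of all genes had an unadjusted p that low, since adjustment only raises p, and their full share was not counted. With all 16 libraries in 1 fit, which shares the spread of the tighter inputs, the 3 pump genes passed. More of all genes passed in that fit too. The groups did not overlap for 1 of the 7 genes, Atp2a2, against 25.5% of all genes tested.

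Atp2b2, whose values per mouse stand above, averaged 9.87 ± 0.20 log2 CPM in PMCA IP and 9.52 ± 0.27 in control IP (SD, n = 4). The log2 fold was 0.35 (1.27-fold, 95% interval 0.03 to 0.67, limma adjusted p = 0.113). Control 1, at 9.89, lay among the PMCA libraries, and the other 3 control libraries lay below all of them. Leaving out 1 mouse at a time, the log2 fold was 0.25 to 0.47 and passed only without control 1 (adjusted p = 0.029). Control 1 stands out by its own value, so that pass is no independent test. With all 16 libraries in 1 fit the log2 fold was 0.35 (adjusted p = 0.031). In the other 13 alternatives adjusted p was 0.113 to 0.459.

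Atp2b3 averaged 6.18 ± 0.30 log2 CPM in PMCA IP and 6.53 ± 0.21 in control IP (SD, n = 4), with a log2 fold of -0.35 (95% interval -0.68 to -0.01, limma adjusted p = 0.129). PMCA 1, 2 and 3 lay at 5.99 to 6.05, below every control library, and PMCA 4 lay at 6.63, among the controls. Leaving out 1 mouse at a time, the log2 fold was -0.49 to -0.25 and passed only without PMCA 4 (adjusted p = 0.010). PMCA 4 stands out by its own value, so that pass is no independent test. With all 16 libraries in 1 fit the log2 fold was -0.35 (adjusted p = 0.038). In the other 13 alternatives adjusted p was 0.085 to 0.272.

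Atp2a2 averaged 9.97 ± 0.047 log2 CPM in PMCA IP and 10.17 ± 0.063 in control IP (SD, n = 4), with a log2 fold of -0.20 (95% interval -0.36 to -0.04, limma adjusted p = 0.0752). It passed with all 16 libraries in 1 fit (-0.20, adjusted p = 0.015). The remaining 4 genes had intervals that reached both sides of 0. Atp2b4 had a log2 fold of 0.27 (-0.03 to 0.58), Atp2b1 of -0.11 (-0.46 to 0.23), Atp2a3 of -0.20 (-0.69 to 0.30) and Atp2c1 of -0.07 (-0.24 to 0.10). Their adjusted p lay between 0.187 and 0.639.

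**Figure D3:**
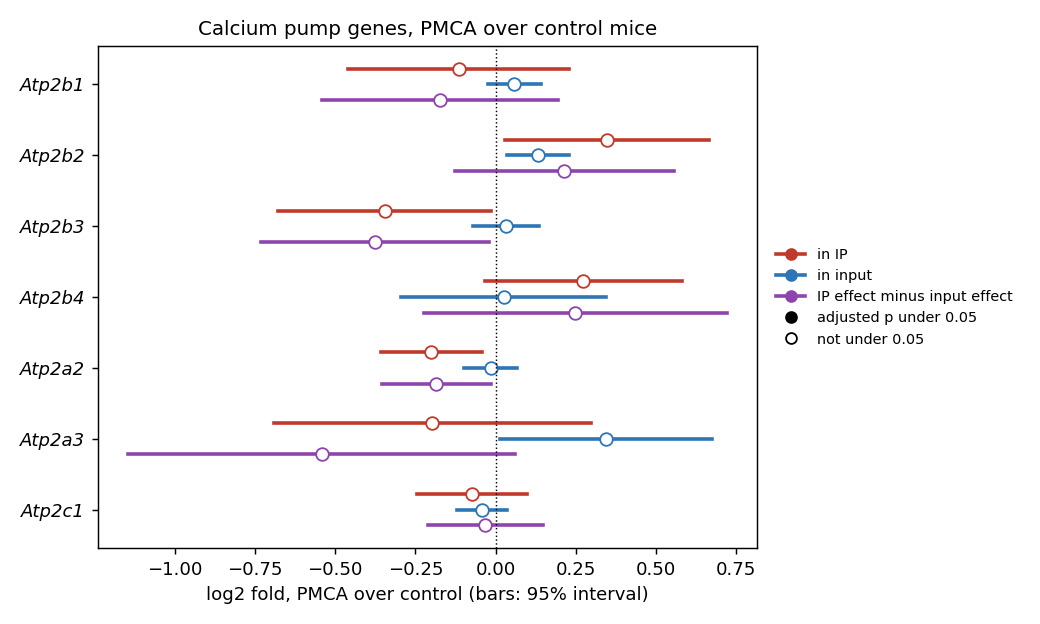
Log2 fold of PMCA over control mice for each calcium pump gene in IP (upper bar), in input (middle bar) and the IP effect minus the input effect (lower bar), with 95% intervals from limma (n = 4 mice per treatment). All points are open, since none of the 21 adjusted p lies under 0.05. The intervals of Atp2b2 lie above 0 in IP and in input.

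RNA of some other cell types moved with the treatment and with single IP libraries. Between treatments in IP, 19.6% of all genes passed, a share that the projection neuron and oligodendrocyte counts below did not exceed. Of 10 general neuronal markers 8 fell in PMCA IP and none rose (median log2 fold -0.49), and their summed level was 2381 to 2652 CPM in PMCA IP against 2998 to 4007 in control IP. Within each treatment, the IP library with the highest neuronal sum, PMCA 4 at 2652 CPM and control 1 at 4007 CPM, also had the highest level of all 4 plasma membrane pump genes, Atp2b4 included. Summed astrocyte markers were 42977 to 50156 CPM in PMCA IP and 31227 to 41284 in control IP, with 3 of 10 higher. In input they were 3446 to 3657 CPM in PMCA mice and 2932 to 3086 in control mice. There 2 of 10 were higher, against 0.442% of all genes passing, and no marker of the other lists passed. Summed endothelial markers were 11.6 to 18.9 CPM in PMCA IP and 7.53 to 8.998 in control IP, with 4 of 8 higher. Of the interneuron markers 6 of 9 fell, of the projection neuron markers 1 of 9 fell, and of the oligodendrocyte markers none of 8 passed. Summed microglial markers were 39.7 to 85.6 CPM in PMCA IP, highest in PMCA 4, and 22.5 to 34.2 in control IP, with 4 of 8 higher. No marker of these lists was at 0 reads in any library. The part of these cell types' RNA in the pump values was not tested.

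**Figure D4:**
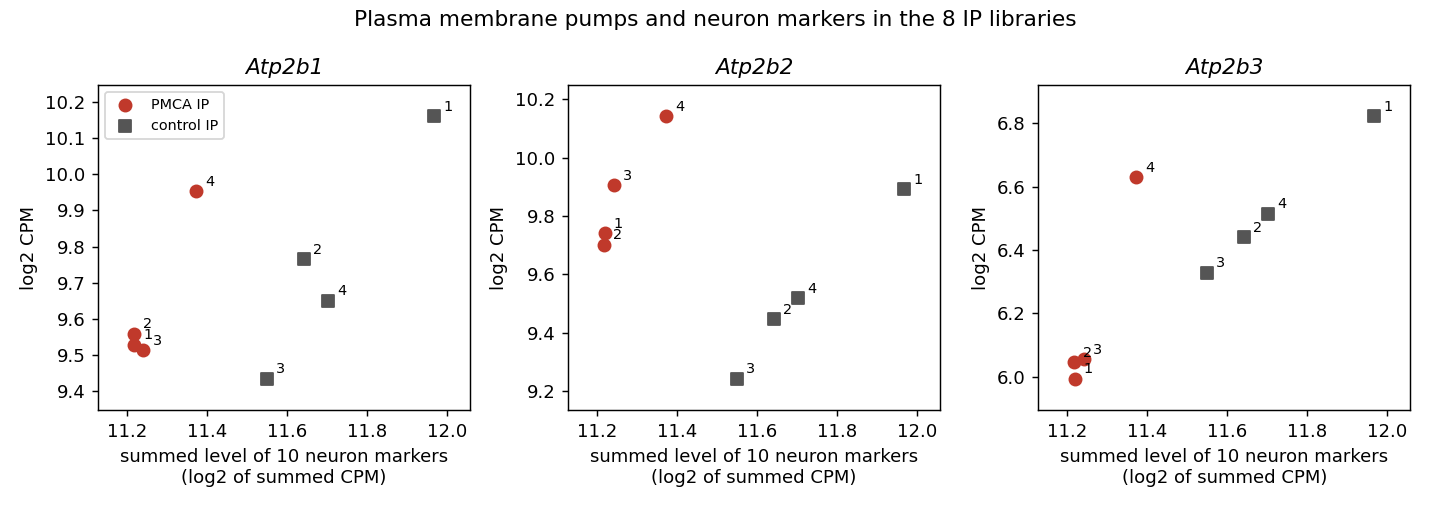
Levels of Atp2b1, Atp2b2 and Atp2b3 (log2 CPM) against the summed level of 10 neuron markers (log2 of summed CPM) in the 4 PMCA IP (circles) and 4 control IP libraries (squares), with mouse numbers. PMCA 4 and control 1 are the highest of their treatment in all 3 genes. At lower neuronal sums, Atp2b2 of PMCA mice lies above that of control 2, 3 and 4.

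The ratio of 1 pump to another within a library was computed for all 21 pairs of the 7 genes. This step was chosen after the values were seen. In such a ratio, gene length and library scaling are the same in both treatments. In IP the treatments did not overlap for 4 of 21 pairs: Atp2b2 with Atp2b1, with Atp2b3 and with Atp2a2, and Atp2b3 with Atp2b4. Each had an exact permutation p = 0.0286 (two-sided), the smallest that 4 against 4 mice allow. After Benjamini-Hochberg adjustment over 21 pairs it was 0.15, and no pair passed. With this smallest p, a pair could pass only if most of the 21 pairs reached it. The adjusted p therefore cannot decide about a single pair. Pairs share genes and are not independent of each other. No share over pairs of all genes was computed to set beside these counts. Of single genes tested, 25.5% did not overlap in IP and 9.76% in input.

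The log2 ratio of Atp2b2 to Atp2b1 was 0.21, 0.14, 0.39 and 0.19 in PMCA IP, against -0.27, -0.32, -0.19 and -0.13 in control IP. It was -0.50, -0.60, -0.54 and -0.60 in PMCA input, against -0.58, -0.73, -0.67 and -0.57 in control input. The IP groups lay apart, with PMCA 4 and control 1 inside their own groups, and the input groups overlapped. The mean difference was 0.46 in IP and 0.07 in input, and leaving out 1 mouse at a time it was 0.41 to 0.49 in IP and 0.04 to 0.10 in input. Leaving out a mouse cannot make groups overlap that already lie apart, so the IP range is no independent test. Whether reads from the human pump were counted under Atp2b2 bears on these ratios too. The log2 ratio of Atp2b2 to Atp2b3 was 3.51 to 3.85 in PMCA IP, against 2.91 to 3.07 in control IP, a difference of 0.69 between means. That of Atp2b2 to Atp2a2 was -0.30 to 0.24 in PMCA IP, against -0.85 to -0.35 in control IP (difference 0.55). That of Atp2b3 to Atp2b4 was -1.36 to -0.998 in PMCA IP, against -0.83 to -0.30 in control IP (difference -0.62). In input 2 of 21 pairs did not overlap, Atp2b1 with Atp2c1 and Atp2b2 with Atp2a2 (adjusted p = 0.30, exact permutation test).

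**Figure D5:**
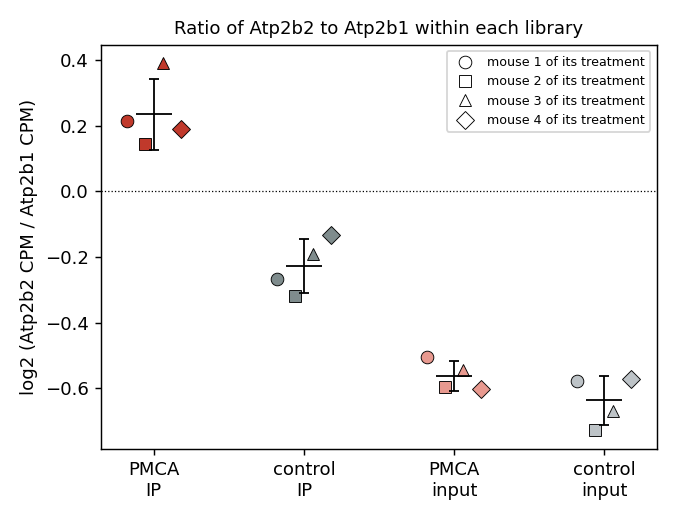
Log2 ratio of Atp2b2 CPM to Atp2b1 CPM within each library in PMCA IP, control IP, PMCA input and control input. Points are mice and bars are mean and SD (n = 4). The ratio was 0.23 ± 0.11 in PMCA IP and -0.23 ± 0.082 in control IP, and -0.56 ± 0.047 in PMCA input and -0.64 ± 0.075 in control input.

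In input, the whole lysate, 0 of 7 pump genes passed (limma), against 0.442% of 16306 genes, and 2 of 7 (Atp2b2 and Atp2a3) had an unadjusted p under 0.05. The share of all genes at that unadjusted threshold was not counted. The groups overlapped for all 7 genes, against 9.76% of all genes without overlap. Atp2b2 averaged 10.42 ± 0.068 log2 CPM in PMCA input and 10.29 ± 0.051 in control input (SD, n = 4; log2 fold 0.13, 95% interval 0.04 to 0.23, adjusted p = 0.153). Atp2a3 had a log2 fold of 0.35 (0.01 to 0.68, adjusted p = 0.244). Leaving out 1 mouse at a time, its log2 fold was 0.25 to 0.50 and passed only without control 4 (adjusted p = 0.020). Control 4, whose Atp2a3 of 3.64 stood above 2.89 to 3.14 in the other controls, stands out by its own value. Without that mouse 1352 of all genes passed in input, against 72 with it. For Atp2b1, Atp2b3, Atp2a2 and Atp2c1 the intervals lay within -0.12 and 0.14, and for Atp2b4 the log2 fold was 0.02 (-0.30 to 0.34).

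The effect in IP minus the effect in input was tested over all 16 libraries. The fit took them as independent, though IP and input came from the same mice. In it 0 of 7 pump genes passed (limma), against 2.03% of 16673 genes. An unadjusted p under 0.05 was reached by 2 of 7 (Atp2a2 and Atp2b3), and the share of all genes at that threshold was not counted. The difference was -0.38 for Atp2b3 (95% interval -0.73 to -0.02, adjusted p = 0.273). Leaving out 1 mouse at a time, it was -0.53 to -0.29 and passed only without PMCA 4 (adjusted p = 0.036), the highest PMCA IP library for this gene. For Atp2a2 the difference was -0.18 (-0.35 to -0.01, adjusted p = 0.263), for Atp2b2 0.21 (-0.13 to 0.56, adjusted p = 0.552) and for Atp2a3 -0.54 (-1.15 to 0.06, adjusted p = 0.370). IP minus input of Atp2a2 within a mouse was -0.21 to -0.13 in PMCA mice and -0.09 to 0.08 in control mice.

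Genes of proteins that bind or regulate the pumps, and the further pump genes Atp2a1 and Atp2c2, formed a list of 30. Between treatments in IP 27 were tested, neither further pump gene among them. There 2 rose and 4 fell, a share near the 19.6% of all genes that passed, with a median log2 fold of -0.04 beside -0.01 over all genes. S100a1, a calcium sensor that acts on SERCA2 in heart muscle, rose by 0.46 (SE 0.082, limma adjusted p = 0.00594), at 7.73 log2 CPM in PMCA IP and 7.26 in control IP. Pln, the SERCA inhibitor phospholamban, rose at a low level (adjusted p = 0.0257), at -0.46 log2 CPM in PMCA IP and -1.46 in control IP. Nptn, encoding neuroplastin, a partner subunit of plasma membrane pumps, had a log2 fold of -0.34 (SE 0.088, adjusted p = 0.0258). It lay at 8.12 to 8.14 log2 CPM in PMCA IP and 8.29 to 8.72 in control IP. Bsg, encoding basigin, the other such partner, did not pass (log2 fold -0.003, SE 0.083, adjusted p = 0.987). Calm2, 1 of 3 calmodulin genes, fell (-0.42, adjusted p = 0.0338), as did Nnat, a small reticulum membrane protein of neurons (-0.36, adjusted p = 0.0282), and Tmx1, a reticulum thioredoxin (-0.28, adjusted p = 0.0117). In input 0 of 29 passed, Atp2a1 and Atp2c2 included, against 0.442% of all genes.

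Between the fractions of control mice 15 of 27 genes of this list rose and 10 fell in IP (median 0.20), against 39.1% higher and 38.4% lower over all genes. The largest rises were those of Nos1, a synthase bound by plasma membrane pumps and also a marker of striatal interneurons (3.48, SE 0.053), Slc9a3r1, a PDZ scaffold (2.93, SE 0.082), and S100a1 (2.02, SE 0.086). The largest falls were those of Pln (-2.03, SE 0.23), Dlg4, the postsynaptic scaffold PSD-95 (-1.49, SE 0.11), and Ppp3ca, a calcineurin subunit (-1.37, SE 0.15). In PMCA mice 14 of 28 rose and 11 fell (median 0.18), against 37.4% higher and 39.3% lower over all genes. The scarce pump gene Atp2c2 was 1 of these 11. Of the pump subunits, Nptn fell (-1.06 in PMCA mice and -0.79 in control mice) and Bsg rose (0.48 in PMCA mice and 0.42 in control mice).

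Other calcium transport genes, exchangers, release channels and entry channels, formed a list of 31, all tested. Between treatments in IP 6 rose and 1 fell (median 0.07), a share near the 19.6% of all genes that passed. In input 0 of 31 passed, against 0.442% of all genes. Adjusted p of these 7 genes lay between 0.0104 and 0.0472. The 6 that rose were the release channel genes Itpr2 (0.39) and Ryr3 (0.64), the lysosomal channel gene Tpcn1 (0.42), the entry channel gene Orai3 (0.26) and the exchanger genes Slc24a5 (0.66) and Slc24a1 (1.28). Slc24a1 was scarce, at -0.996 log2 CPM in PMCA IP and -2.28 in control IP. Mcoln1, a lysosomal channel gene, fell (-0.23). The means of the 6 genes that rose were higher in PMCA mice in input as well. There the log2 fold was 0.49 for Itpr2 (limma adjusted p = 0.077) and 0.01 for Orai3 (adjusted p = 0.897). The effect in IP minus that in input passed for 0 of 31 genes, against 2.03% of all genes. The 3 sodium-calcium exchanger genes of the Slc8a family, whose proteins also carry calcium out of the cell, did not pass, with log2 folds of -0.31 for Slc8a1, -0.08 for Slc8a2 and -0.03 for Slc8a3.

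Between fractions 11 of the 31 rose and 14 fell in IP in PMCA mice (median -0.21), against 37.4% higher and 39.3% lower over all genes. In control mice 12 rose and 15 fell (median -0.10), against 39.1% higher and 38.4% lower. In control mice the largest rises were those of Itpr2 (2.49), the mitochondrial exchanger gene Slc8b1 (2.20) and Mcur1, a regulator of the mitochondrial uniporter (2.15). The largest falls were those of Itpr3 (-2.39), Ryr1 (-2.08) and Ryr3 (-1.77). Slc8a2 (-1.04) and Slc8a3 (-0.90) fell in control mice as well, while Slc8a1 did not pass (0.33, adjusted p = 0.0777).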

How the data were processed

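RNA of 16 libraries (4 PMCA IP, 4 control IP, 4 PMCA input, 4 control input) was sequenced from stranded, rRNA-depleted libraries, per the labels' protocols. Per the submitters' processing notes, STAR, HTSeq, edgeR and limma were used with mm10. The sources used here give no versions, roles, settings, annotation or use of strand in counting. Deposited by the authors were log2 CPM values (read counts scaled to library size) for 20730 genes, with a lowest value of -7.47 in every library.

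Undoing the log2 scale and the average prior count of 0.25 returned whole reads for 100% of values within a tolerance of 0.001. That gave library totals and the scaling factors (0.89 to 0.92 in IP, 1.10 to 1.12 in input). A gene was tested if at least 4 libraries reached the level of 10 reads in a library of median size and its reads came to at least 15. All 7 pump genes passed in every comparison. Because the unit is log2, each gene was tested with limma (version 3.58.1 in R 4.3.3) on the deposited values, allowing the variance to depend on the level. Tests were two-sided, and p-values were adjusted by Benjamini-Hochberg over all genes tested, with a threshold of 0.05. Log2 folds include the prior count and so understate changes of scarce genes. Pair ratios were computed in Python 3.11.15 with scipy 1.17.1. The code was tested on simulated data.

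All 7 genes, list genes that passed between treatments, the 3 largest rises and falls per list in control mice and the 3 genes most correlated with each pump were named. Members, lists and rules were chosen with earlier results of these data known. Values for different genes are not compared by level, since the reference gave gene spans and no transcript lengths. Separate mice are taken from the labels' animal numbers. The 2 label fields of control 4 disagree on its animal number, and each was tried. IP and input came from the same mouse, a pairing that the main fits did not use. Over 13123 genes their deviations from group means had r of 0.24 to 0.68 (8 pairs), against -0.47 to 0.20 between different mice of a treatment (24 pairs). Bsg and the Slc8a genes were named after their values were seen, and Atp2c2 and Atp2a1 to describe the list. Levels per length were planned and not run. Alternatives were total reads, a prior count of 2, no filter, no trend, 1 fit of all libraries, the animal or the animal-number set as a block, and leaving out each mouse.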

Additional observations from a re-analysis of the deposited data

Results flagged for a closer look

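In 28 groups of 4 libraries, 1 library stood apart from the other 3 by Dixon's 95% limit on the gap to the nearest library in 3 cases, all in PMCA IP 4. Chance flags about 1 in 20 groups. Atp2b1 was 9.95 log2 CPM in that library and 9.51 to 9.56 in the other 3 PMCA IP libraries. Atp2b3 was 6.63 there and 5.99 to 6.05 in the others. Atp2a2 was lowest there, at 9.90, with the others at 9.99 to 10.004. The same library had the highest neuronal (2652 CPM) and microglial (85.6 CPM) marker sums of the 4, and their part in these values was not tested.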

How the results depend on the processing

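Over the alternatives, 449 values of single pump genes kept their direction and side of the threshold. Another 14 changed sign. Of those that kept their sign, 7 passed the threshold newly and 6 lost it. With total reads, 2 of the 14 also crossed the threshold: Atp2a2 newly passed between fractions of control mice and Atp2c1 lost its call in PMCA mice. The causes were not tested. With all 16 libraries in 1 fit, 3 pump genes passed between treatments in IP (Atp2b2, Atp2b3 and Atp2a2), beside 4691 genes in all against 3088. With the animal-number set as a block, placing control 4 by its source name, 1699 genes passed in IP and 32 in input. In input, where 72 genes passed, the count was 27 with no filter, 13 with no trend, 47 in 1 fit and 868 with the set as a block placed by title. That block gave 549 genes for the effect in IP minus that in input, against 339. With total reads, genes higher in IP were 4294 of 13192 in PMCA mice and 4493 of 12882 in control mice, against 6121 of 12551 and 6285 of 12457 with the authors' scaling.

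Leaving out 1 mouse at a time, the pump genes that passed numbered 0 to 1 in IP, 0 to 1 in input and 0 to 1 for the effect in IP minus that in input. Among all genes the counts were 1702 (without control 2) to 3606 (without PMCA 4) in IP, 4 (without PMCA 1) to 1352 (without control 4) in input, and 23 (without control 2) to 436 (without PMCA 4) for the difference of effects. Log2 folds that changed sign ranged over -0.22 to 0.022 for Atp2b1 in IP, -0.092 to 0.17 for Atp2b4 and -0.034 to 0.0039 for Atp2a2 in input, -0.015 to 0.043 for Atp2a2 between fractions of control mice, and -0.080 to 0.015 for Atp2c1 in the difference of effects. With the set as a block, Atp2b4 in input was -0.027 by title and -0.11 by source name, and Atp2c1 in IP was 0.0044 by source name. With total reads, Atp2c1 between fractions was -0.015 in PMCA mice and Atp2a2 was -0.27 in control mice.

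With the animal as a replicate block, 7 pump genes passed between fractions in PMCA mice (12733 genes in all), 6 in control mice (12772) and 0 for the difference of effects (466), and no call of a pump gene changed. Treatments have no shared mice, so no such block exists for them. Levels per length were not run. Few reads limit Atp2a3.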

Other observations

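In the list of pump partners, 29 genes were tested for the effect in IP minus that in input. There 1 was higher and 2 were lower, against 2.03% of all genes passing. S100a1 was higher (0.49, SE 0.12, limma adjusted p = 0.0471), and Nos1 was lower (-0.47, SE 0.096, adjusted p = 0.0233). Between treatments Nos1 passed neither in IP (log2 fold -0.12, limma adjusted p = 0.227) nor in input (0.35, adjusted p = 0.0669). The larger part of its difference thus lay in input. The further pump gene Atp2c2 was also lower (-2.62, SE 0.62, adjusted p = 0.0414). It was scarce, at -3.13 log2 CPM in PMCA IP, -1.94 in control IP, -1.54 in PMCA input and -2.96 in control input. Nos1 is also on the interneuron marker list, of which 6 of 9 genes, Nos1 included, were lower in the same comparison, as were 3 of 10 general neuronal markers. The part of neuronal RNA in the Nos1 value was not tested.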
